A study of Mus musculus with 6 samples.

Results

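The genes described here are those that write, copy and remove cytosine methylation in mouse DNA. They were taken by gene symbol from the list Dnmt1, Dnmt3a, Dnmt3b, Dnmt3l, Uhrf1, Tet1, Tet2, Tet3 and Tdg, and all 9 were found among the 20325 genes listed in every library. Of the 9, 8 passed the filter on low counts that left 13460 genes for testing, with at least 220 expected counts in every library, and Dnmt3l did not. The RNA came from neural stem cells, which self-renew and give rise to neurons and glia, isolated from mice of a mixed 129/Black 6 background at postnatal day 4. The mice carried 2 copies of the Stemcca allele in the ColA1 locus, from which doxycycline induces Oct4, Sox2, c-Myc and Klf4, and 1 copy of the rtta activator in the Rosa26 locus. The cells had been expanded, frozen and plated on gelatin, and doxycycline was given until day 7, so both sorted populations carried the same alleles and had the same treatment. They were fixed, stained for E-cadherin and for Nanog, sorted, and taken out of crosslinks before RNA isolation. The comparison, between 3 libraries of Nanog+E-cadherin+ and 3 of Nanog+E-cadherin- cells, asks how Nanog-positive cells differ with the presence of E-cadherin. The labels name no unsorted or uninduced control and do not say whether replicates came from separate mice or cultures, so the p-values given here reflect the variation among these libraries.

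DNA methylation in mammals is placed mostly on cytosines that are followed by guanine, called CpG sites. After replication Uhrf1 recognises sites methylated on the old strand only, and Dnmt1 copies the mark to the new strand; Dnmt3a and Dnmt3b methylate new sites, and Dnmt3l, which has no catalytic activity, assists them. The Tet enzymes oxidise methylcytosine, and the glycosylase Tdg cuts out the most oxidised forms so that repair restores an unmethylated cytosine. In reprogramming to pluripotency, methylation has to be removed from silenced pluripotency genes, and pluripotent stem cells are known for high Dnmt3b, Dnmt3l and Tet1.

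Total expected counts ran from 8851110 to 39630916 per library. The gate gene Cdh1, which encodes E-cadherin, stood at 30.54, 68.64 and 61.16 TPM (a level corrected for transcript length) in the Nanog+E-cadherin+ libraries 1 to 3 and at 5.20, 9.68 and 7.84 TPM in the Nanog+E-cadherin- libraries, and Nanog, Nes and Sox2 were present in all 6. Nanog+E-cadherin- replicates 2 and 3 stood apart: 1450 olfactory and vomeronasal receptor genes, a signal called background sequence here, summed to 1886 and 1215 CPM (counts scaled to a common library size) in them and to between 31.92 and 155.1 CPM in the other libraries. Where this signal came from was not examined. These sums and the marker sums that follow are scaled by library totals, and all CPM of single genes by TMM (trimmed mean of M-values) as well. Libraries with the same replicate number deviated together, so each fit was also made with the replicate number as a block, and a pair means 2 libraries with the same number. Summed over 4 Y-linked genes, both libraries numbered 2 stood at 1.53 (Nanog+E-cadherin+) and 0 CPM (Nanog+E-cadherin-) and the other 4 between 54.12 and 172 CPM, so the numbers do not all stand for repeats of the same cells. Summed over 6 genes, astrocyte markers stood at 122.5 and 107.6 CPM in the pair numbered 1 and between 523.1 and 1262 CPM in the others. Summed neuron markers (8 of 8 at 1 TPM or more in some library) ran from 229.2 to 851.4 CPM in Nanog+E-cadherin+ and from 389.4 to 1199 CPM in Nanog+E-cadherin- libraries, and were lower in Nanog+E-cadherin+ in every pair. Microglia markers stayed at 9.819 CPM or less in sum, with 4 of 6 under 1 TPM in all libraries. The part of other cell types in the values below was not tested, and in bulk RNA fewer cells of a type and less RNA per cell cannot be told apart.

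None of the 8 tested genes passed an adjusted p of 0.05 between the populations. With group as the only term, edgeR (quasi-likelihood test, Benjamini-Hochberg adjustment) called 0% of all genes (0 of 13460, with 359 at an unadjusted p under 0.05), and no member had an unadjusted p under 0.05. With the replicate block it called 0.215% of all genes higher and 0.0892% lower in Nanog+E-cadherin+ cells, and again 0 of the 8. With group only the smallest unadjusted p was that of Dnmt3b, which was fitted 1.31-fold higher in both fits. With the block the smallest were those of the maintenance pair Dnmt1 and Uhrf1, which had fitted levels 1.28-fold higher in Nanog+E-cadherin+ cells each, and both were among the 5.51% of all genes with an unadjusted p under 0.05 in that direction, against 5.19% in the other, where no member lay. Dnmt1, Uhrf1 and Dnmt3b were higher in Nanog+E-cadherin+ cells within all 3 pairs, as were 18.9% of all genes tested, and Tet3 was lower within all 3 pairs, as were 17.3%. For Dnmt1 and Dnmt3b the CPM of the groups did not overlap, which held in this direction for 3.74% of all genes, and for no member did it hold in the other direction, as it did for 3.25%. In all, 6 of the 8 were fitted higher and 2 lower, and the median log2 fold change was 0.12 over the 8 and -0.01 over all genes tested.

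Per transcript length, the genes spanned a wide range of levels. Over all 6 libraries Uhrf1 averaged 216.2 TPM, Dnmt1 107.3 TPM and Tdg 82.2 TPM, followed by Dnmt3a at 28.14 TPM. Below these came Tet3 at 14.43 TPM, Dnmt3b at 12.88 TPM, Tet2 at 6.00 TPM, Tet1 at 5.43 TPM and Dnmt3l at 0.115 TPM. The order Uhrf1, Dnmt1, Tdg, Dnmt3a was the same in each of the 6 libraries, and Dnmt3l was last in each. Between these, Tet3 and Dnmt3b changed places between libraries, as did Tet2 and Tet1, and Tet2 exceeded Tet3 in Nanog+E-cadherin+ replicate 1. The order within each of these combinations was thus not fixed, while Dnmt3b exceeded both Tet2 and Tet1 in each of the 6 libraries. The machinery that copies methylation was thus the most abundant in both populations at the RNA level, and the Tet enzymes and Dnmt3b were the least abundant of the 8.

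**Figure D1:**
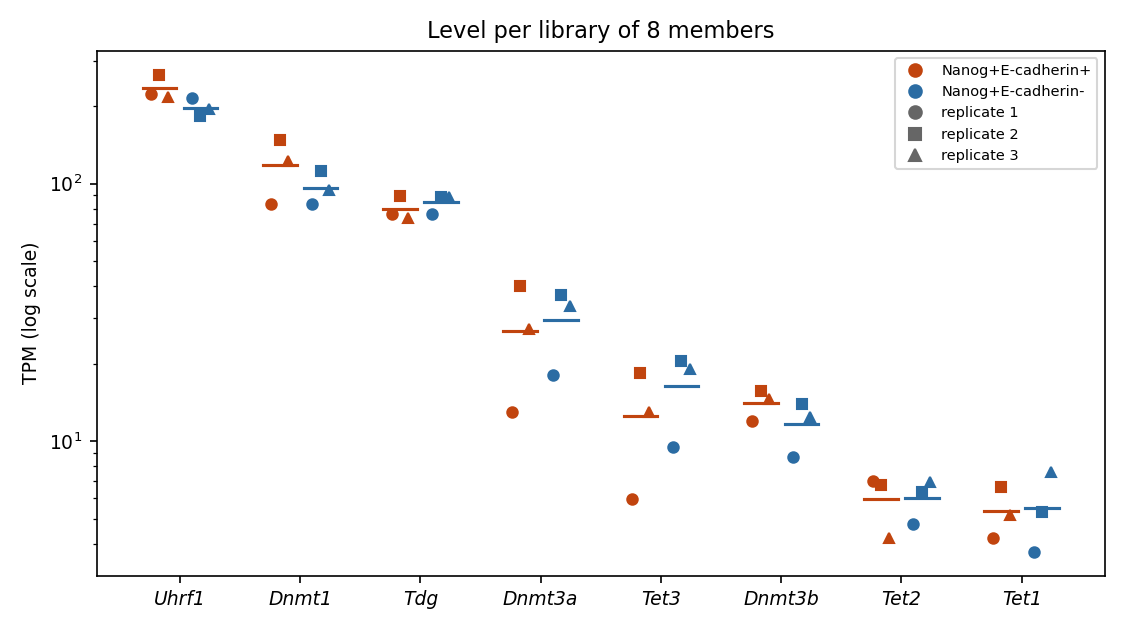
The TPM of 8 members (log scale) is plotted by gene for each library, with bars at group means; colours mark Nanog+E-cadherin+ and Nanog+E-cadherin- libraries and symbols mark replicate numbers. Uhrf1 at an average of 216.2 TPM stands highest and Tet1 at 5.43 TPM lowest, and the ranges of both colours overlap for each gene drawn except Uhrf1. The share of all genes without overlap in TPM was not computed. Dnmt3l, at 0 in 4 libraries, is not drawn.

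Uhrf1, the reader of hemimethylated CpG sites that recruits Dnmt1, stood at 595.4, 433.7 and 389.5 CPM in Nanog+E-cadherin+ replicates 1 to 3. Its values in the Nanog+E-cadherin- libraries in the same order were 532.4, 297.7 and 300.0 CPM. The highest libraries of both groups were those numbered 1, and the CPM of the groups overlapped because Nanog+E-cadherin- replicate 1 exceeded Nanog+E-cadherin+ replicates 2 and 3. On the TPM scale, at 223.25, 265.14 and 217.08 against 214.19, 182.79 and 194.98 TPM, the groups did not overlap. The share of all genes without overlap was computed for CPM only, so none can be set beside this. The mean level was 472.9 ± 108.4 CPM against 376.7 ± 134.9 CPM (SD, n = 3 each). For Uhrf1 the quasi-likelihood test of edgeR gave a log2 fold change of 0.33 ± 0.32 (SE, adjusted p = 1) from group alone and 0.36 ± 0.14 (SE, adjusted p = 0.397) with the block, with 95% intervals from -0.43 to 1.09 and from 0.05 to 0.67. Within the pairs the log2 ratio was 0.16, 0.54 and 0.38. Of the fits that left out 1 library, Uhrf1 was lowest at 0.13 without Nanog+E-cadherin+ replicate 1, at 0.19 when either replicate 2 or 3 of Nanog+E-cadherin- was dropped, and highest at 0.67 when replicate 1 of that group was. Without both Nanog+E-cadherin- replicates 2 and 3 it was -0.17, a value that sets all Nanog+E-cadherin+ libraries against replicate 1 alone, the highest of its group for Uhrf1, so that background sequence and replicate number cannot be told apart in it. In the pair numbered 1, where the receptor sum was low in both libraries, Uhrf1 stood at 595.4 against 532.4 CPM. That was the smallest of the pair ratios, and the part of background sequence in the values was not tested.

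Uhrf1 is shown with the 250 bases before one of its 2 RefSeq starts because this window is among the richest in CpG of the genes described, the substrate of the enzymes themselves. The window lies on GRCm38.p6 at chr17:56304063-56304312, plus strand, and the CG letters are in capitals. It holds 30 CpG sites, and 94.1% of all such windows hold fewer (32841 windows of 27018 genes, median 6). The window of the other start holds 10. The sequences come from RefSeq, matched by symbol for 9 of 9 members with 16 windows, and the expression files are of the build mm9, so no coordinates of the files were used.
Uhrf1 start 2: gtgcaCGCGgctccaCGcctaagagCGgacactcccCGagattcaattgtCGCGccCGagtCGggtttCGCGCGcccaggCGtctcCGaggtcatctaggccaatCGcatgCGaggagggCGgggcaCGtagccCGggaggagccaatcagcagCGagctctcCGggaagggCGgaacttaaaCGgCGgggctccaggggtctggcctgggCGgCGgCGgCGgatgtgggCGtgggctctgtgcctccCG

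Dnmt1, the maintenance methyltransferase, stood at 343.4, 373.4 and 338.1 CPM in Nanog+E-cadherin+ and at 319.2, 285.6 and 225.7 CPM in the Nanog+E-cadherin- libraries 1 to 3. Every Nanog+E-cadherin+ library lay above every Nanog+E-cadherin- library in CPM, the closest being 338.1 against 319.2. In TPM, with 83.62, 148.14 and 122.34 against 83.31, 111.61 and 94.81, the groups overlapped, since both libraries numbered 1 were low on that scale. The means were 351.6 ± 19.04 CPM and 276.8 ± 47.39 CPM (SD, n = 3 each). For Dnmt1 the fitted log2 fold change was 0.34 ± 0.23 (SE, adjusted p = 1 in edgeR's quasi-likelihood test) without the block and 0.36 ± 0.14 (SE, adjusted p = 0.432) with it. Its 95% interval ran from -0.19 to 0.88 with group only and from 0.03 to 0.69 with the block, and the pair ratios on the log2 scale were 0.11, 0.39 and 0.58. Dnmt1 was fitted higher in all 20 alternative fits, between 0.14 and 0.50 on the log2 scale, and passed in none. The lowest value came without both Nanog+E-cadherin- replicates 2 and 3, against replicate 1 alone, the highest of its group for Dnmt1. Background sequence and replicate number cannot be told apart in it. The pair numbered 1, where the receptor sum was low in both libraries, had the smallest pair ratio. The part of background sequence in the values was not tested. The TPM ratio of Uhrf1 to Dnmt1 was 2.67, 1.79 and 1.77 in Nanog+E-cadherin+ and 2.57, 1.64 and 2.06 in the Nanog+E-cadherin- libraries 1 to 3. The ratio was higher in both libraries numbered 1 than in the other 4, and the group difference was -0.01 on the log2 scale (exact two-sided permutation p = 1, adjusted p = 1 over 4 ratios).

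**Figure D2:**
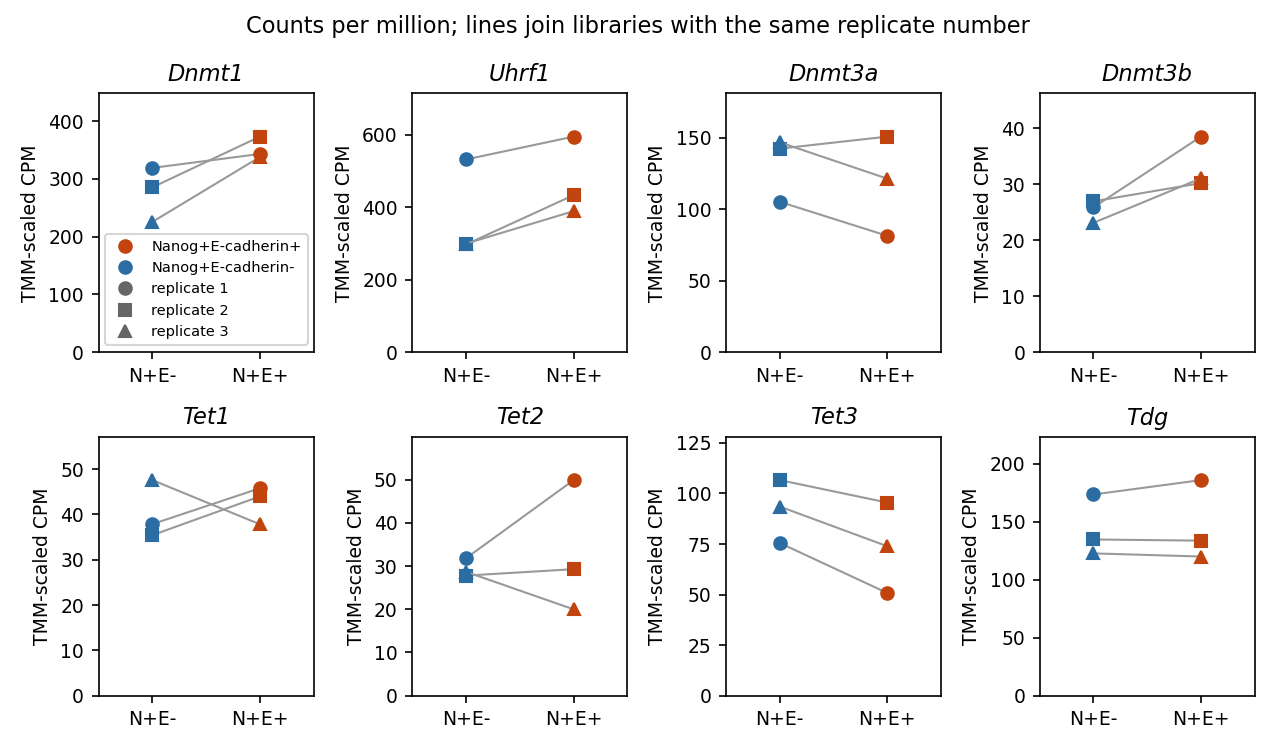
CPM scaled by TMM is plotted for each of 8 members, with Nanog+E-cadherin- libraries (N+E-) at the left and Nanog+E-cadherin+ libraries (N+E+) at the right of each panel and lines joining equal replicate numbers; axes start at 0. All 3 lines go up to the right for Dnmt1, Uhrf1 and Dnmt3b and down for Tet3, and those of the other genes differ in direction.

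Dnmt3a, a methyltransferase of new sites, stood at 81.34, 150.7 and 121.3 CPM in Nanog+E-cadherin+ and at 105.1, 142.3 and 146.7 CPM in the Nanog+E-cadherin- libraries 1 to 3. Both libraries numbered 1 were the lowest of their group, and the groups overlapped. The means were 117.8 ± 34.82 CPM and 131.4 ± 22.85 CPM (SD, n = 3 each). For Dnmt3a the fitted log2 fold change was -0.16 ± 0.28 (SE, adjusted p = 1) without the block and -0.19 ± 0.15 (SE, adjusted p = 0.690) with it in edgeR's quasi-likelihood test, and the 95% interval with the block ran from -0.54 to 0.16. Within the pairs it was -0.37, 0.08 and -0.27, and 0.05 was fitted from group alone once Nanog+E-cadherin+ replicate 1 was left out. Dnmt3a thus had no direction that the pairs shared.

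Dnmt3a is read from more than 1 start, and the deposited files list a long and a short RefSeq transcript under the gene. The starts lie 84714 bases apart on GRCm38, and the short form, which lacks the amino-terminal part, has 2067 coding bases against 2724. The windows before the first and the last of the 3 starts that RefSeq's table gives are shown because their CpG content differs: 38 CpG sites at chr12:3806730-3806979 (98.1% of windows hold fewer) and 15 at chr12:3891494-3891743 (72.7% hold fewer), both on the plus strand. The last is the start of the short transcript. The first lies shortly upstream of the start of the long transcript and belongs to neither deposited transcript; the window between, which holds 40 sites, contains that start and is not printed. The CG letters are again in capitals.
Dnmt3a first start: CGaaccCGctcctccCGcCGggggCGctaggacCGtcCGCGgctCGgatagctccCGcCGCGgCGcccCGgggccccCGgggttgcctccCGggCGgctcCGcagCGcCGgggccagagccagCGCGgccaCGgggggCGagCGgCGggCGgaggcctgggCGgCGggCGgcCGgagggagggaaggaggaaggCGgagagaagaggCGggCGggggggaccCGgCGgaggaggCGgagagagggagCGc
Dnmt3a last start: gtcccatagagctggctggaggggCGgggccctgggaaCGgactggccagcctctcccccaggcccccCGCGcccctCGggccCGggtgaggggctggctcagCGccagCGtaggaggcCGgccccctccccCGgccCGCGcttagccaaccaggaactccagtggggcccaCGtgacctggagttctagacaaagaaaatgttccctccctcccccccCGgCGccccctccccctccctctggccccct
The mean transcript length that the files give for Dnmt3a, weighted by the authors' isoform estimates, was 8041, 7970 and 8594 bases in Nanog+E-cadherin+ and 7987, 8075 and 9735 bases in the Nanog+E-cadherin- libraries 1 to 3. Nanog+E-cadherin- replicate 3 differed from the other 5 libraries, its value being the highest deposited and the one that results if all its 1398 counts were assigned to the long transcript. If the short transcript has the 5424 bases annotated in GENCODE M21, the long one held an estimated 60.7%, 59.1% and 73.5% of Dnmt3a transcripts in Nanog+E-cadherin+ and 59.4%, 61.5% and 100% in Nanog+E-cadherin- libraries. Group mean lengths of 8202 ± 342 and 8599 ± 985 bases (SD, n = 3 each) differed by less than the SD of the Nanog+E-cadherin- group, which holds the long value of replicate 3, and by more than that of the Nanog+E-cadherin+ group. Of the annotated bases found only in the long transcript, 3489 lie after the stop codon and 889 upstream of the short one, so the estimate reflects the end of the transcript as well as its start, and use of the starts cannot be told apart from it.

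Dnmt3b, the methyltransferase of new sites that is high in pluripotent cells, stood at 38.49, 30.19 and 31.04 CPM in Nanog+E-cadherin+ and at 25.86, 26.93 and 23.09 CPM in the Nanog+E-cadherin- libraries 1 to 3. Every Nanog+E-cadherin+ library was above every Nanog+E-cadherin- library in CPM, and in TPM (11.99, 15.65 and 14.56 against 8.70, 13.93 and 12.43) the groups overlapped. The means were 33.24 ± 4.57 CPM and 25.29 ± 1.98 CPM (SD, n = 3 each). For Dnmt3b the fitted log2 fold change was 0.39 ± 0.23 (SE, adjusted p = 1) without the block and 0.39 ± 0.21 (SE, adjusted p = 0.544) with it in edgeR's quasi-likelihood test, with 95% intervals from -0.15 to 0.94 and from -0.08 to 0.86. It was fitted higher in all 20 alternative fits, between 0.26 and 0.50, and passed in none. The TPM ratio of Dnmt3b to Dnmt3a was 0.92, 0.39 and 0.54 in Nanog+E-cadherin+ and 0.48, 0.38 and 0.37 in the Nanog+E-cadherin- libraries 1 to 3. It was higher in Nanog+E-cadherin+ in each pair, by 0.94, 0.06 and 0.54 on the log2 scale, with a mean difference of 0.51 (exact two-sided permutation p = 0.2, adjusted p = 0.4 over 4 ratios, smallest possible p = 0.1). Without Nanog+E-cadherin+ replicate 1 that difference was 0.18. Summed per length, Dnmt3a and Dnmt3b together stood to Dnmt1 at 0.30, 0.38 and 0.34 in Nanog+E-cadherin+ and at 0.32, 0.46 and 0.49 in Nanog+E-cadherin- libraries. That ratio was lower in Nanog+E-cadherin+ in all 3 pairs, by a mean of -0.30 on the log2 scale (exact two-sided permutation p = 0.3, adjusted p = 0.4), and so did not pass.

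Dnmt3l, the cofactor of the Dnmt3 enzymes and a gene of germ cells and pluripotent cells, was close to undetected. It had 12 counts (0.661 CPM, 0.52 TPM) in Nanog+E-cadherin+ replicate 1 and 7 counts (0.197 CPM, 0.17 TPM) in Nanog+E-cadherin- replicate 1, and 0 counts in the other 4 libraries. A count of 0 allows up to 3 counts, which is 0.227 and 0.150 CPM in the Nanog+E-cadherin+ libraries 2 and 3 and 0.260 and 0.315 CPM in the Nanog+E-cadherin- libraries 2 and 3. The level of Nanog+E-cadherin- replicate 1 lies below 3 of these 4 limits, so for it a difference from those libraries was not detectable at this depth, and these limits cover counting error only. The deposited length of Dnmt3l was 1669 bases in both libraries with counts and 1742 bases where it had none, which is what results if all counts fell on the shorter of its 2 transcripts. Dnmt3l shares 67 bases with Aire on the opposite strand, and Aire had 16, 3 and 0 counts in Nanog+E-cadherin+ and 21, 1 and 0 in the Nanog+E-cadherin- libraries 1 to 3, so both genes had most of their counts in the pair numbered 1. The strand used in counting is not given in the sources used here, and reads in the overlap cannot be told apart.

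The 250 bases before the start of the shorter Dnmt3l transcript are shown as an example of a CpG-poor window. They lie at chr10:78049592-78049841, plus strand, and hold 4 CpG sites (37.8% of windows hold fewer), against 51 for Tet2, the richest window among the members, while 1 window of Dnmt1 holds 2 and the last of Dnmt3l holds 3.
Dnmt3l start 2: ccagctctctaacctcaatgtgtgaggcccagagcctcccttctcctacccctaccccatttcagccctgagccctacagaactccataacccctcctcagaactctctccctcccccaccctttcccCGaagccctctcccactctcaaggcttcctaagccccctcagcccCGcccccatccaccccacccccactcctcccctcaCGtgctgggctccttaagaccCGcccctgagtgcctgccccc
The other windows held between 2 and 26 sites for Dnmt1 (3 starts), 21 for Dnmt3b, 15 for Tet1, 17 for Tet3 and 19 for Tdg. These are counts of letters and not of methylation, which was not measured.

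**Figure D3:**
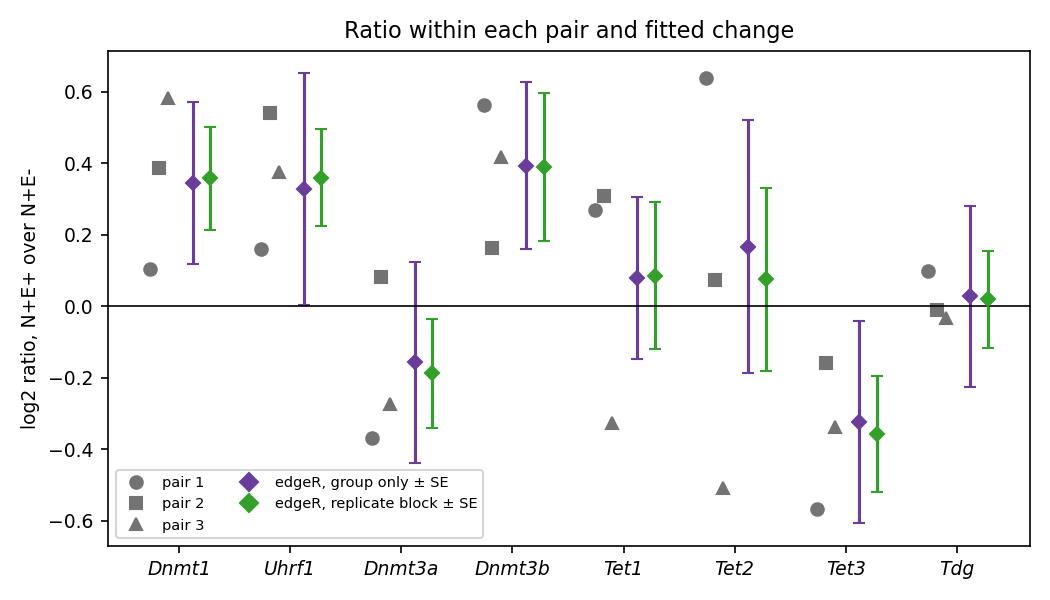
The log2 ratio of Nanog+E-cadherin+ (N+E+) over Nanog+E-cadherin- (N+E-) is plotted for 8 members within each of 3 pairs (grey symbols), with the value fitted by edgeR with group only and with the replicate block (diamonds, bars are SE). The grey symbols lie above 0 in all 3 pairs for Dnmt1, Uhrf1 and Dnmt3b and below 0 for Tet3, and the largest spread is that of Tet2, from -0.51 to 0.64.

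Of the Tet enzymes, which oxidise methylcytosine, none passed the test, and Tet3 alone had one direction in all pairs. Tet1, the Tet enzyme characteristic of pluripotent cells, stood at 45.76, 43.96 and 37.80 CPM in Nanog+E-cadherin+ and at 37.85, 35.41 and 47.55 CPM in the Nanog+E-cadherin- libraries 1 to 3. It was higher in Nanog+E-cadherin+ in the pairs numbered 1 and 2 and lower in that numbered 3, and the groups overlapped at 42.51 ± 4.18 and 40.27 ± 6.42 CPM (SD, n = 3 each). Its log2 fold change was 0.09 ± 0.21 (SE, adjusted p = 0.905 in edgeR's quasi-likelihood test) with the block, with a 95% interval from -0.38 to 0.56, and on the TPM scale the value was -0.02. Tet2, best known from blood cells, stood at 49.89, 29.28 and 19.98 CPM in Nanog+E-cadherin+ and at 31.83, 27.79 and 28.66 CPM in Nanog+E-cadherin- libraries. The Nanog+E-cadherin+ libraries of Tet2 held both the highest and the lowest of the 6 values, with means of 33.05 ± 15.31 and 29.42 ± 2.13 CPM (SD, n = 3 each). Its log2 fold change was 0.08 ± 0.26 (SE, adjusted p = 0.934 in edgeR's quasi-likelihood test) with the block, and -0.26 from group alone once Nanog+E-cadherin+ replicate 1 was left out.

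Tet3, the Tet enzyme of the oocyte and of neural cells, stood at 50.77, 95.49 and 73.89 CPM in Nanog+E-cadherin+ and at 75.50, 106.6 and 93.52 CPM in the Nanog+E-cadherin- libraries 1 to 3. It was lower in Nanog+E-cadherin+ in each pair, while the groups overlapped because Nanog+E-cadherin+ replicate 2 exceeded Nanog+E-cadherin- replicates 1 and 3. The means were 73.39 ± 22.36 and 91.87 ± 15.61 CPM (SD, n = 3 each). For Tet3 the fitted log2 fold change was -0.32 ± 0.28 (SE, adjusted p = 1) without the block and -0.36 ± 0.16 (SE, adjusted p = 0.482) with it in edgeR's quasi-likelihood test, with a 95% interval from -0.73 to 0.01 with the block. With group only Tet3 was at -0.11 when Nanog+E-cadherin+ replicate 1 was left out, at -0.55 when replicate 2 of that group was, and at -0.20 when Nanog+E-cadherin- replicate 2 was. Without both Nanog+E-cadherin- replicates 2 and 3 it was -0.05, against replicate 1 alone, the lowest of its group for Tet3, so that background sequence and replicate number cannot be told apart there. Tet3 took the largest share of the summed Tet TPM in 5 of 6 libraries, with 34.8%, 58.0% and 58.1% in Nanog+E-cadherin+ and 52.9%, 63.8% and 56.8% in Nanog+E-cadherin- libraries, and in Nanog+E-cadherin+ replicate 1 Tet2 led with 40.7%. The share of Tet1 was 24.5%, 20.8% and 23.2% in Nanog+E-cadherin+ and 20.6%, 16.5% and 22.5% in Nanog+E-cadherin- libraries. It was higher in Nanog+E-cadherin+ within each pair, with a mean difference of 0.21 on the log2 scale (exact two-sided permutation p = 0.2, adjusted p = 0.4 over 4 ratios), so this difference did not pass either. Without Nanog+E-cadherin- replicate 2 it was 0.08.

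Tdg, the glycosylase that removes oxidised cytosines, stood at 185.9, 133.7 and 120.0 CPM in Nanog+E-cadherin+ and at 173.5, 134.7 and 122.7 CPM in the Nanog+E-cadherin- libraries 1 to 3. The values followed the replicate number almost without regard to the group, and the pair ratios on the log2 scale were 0.10, -0.01 and -0.03. The log2 fold change of Tdg was 0.02 ± 0.14 (SE, adjusted p = 0.972 in edgeR's quasi-likelihood test) with the block, with a 95% interval from -0.29 to 0.33. Tdg is uncertain as a count, since in GENCODE M21 it shares 2968 bases at 98.7% identity with the pseudogene Tdg-ps. It also shares 1194 and 1193 bases at 99.2% and 99.3% with Gm9855 and Gm5597. None of these is listed by that name in the libraries, so any reads from them could have been counted as Tdg. The same holds for Uhrf1, with 1590 bases at 98.3% identity to Gm5648, and for Dnmt3b, with 1655 bases at 93.3% to Dnmt3c. Whether these copies were expressed was not examined. On the opposite strand Tdg overlaps 367 bases of Glt8d2, a listed gene with at most 21 counts in any library.

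The replicate number was also tested as a term. Over all genes, 22.2% passed a test of the replicate number terms in edgeR's blocked quasi-likelihood fit, and of the members Uhrf1 did (adjusted p = 0.0214), which is 1 of 8. Uhrf1 averaged 563.9 CPM over the libraries numbered 1 and 365.7 and 344.8 CPM over those numbered 2 and 3. Tdg averaged 179.7, 134.2 and 121.4 CPM in that order (adjusted p = 0.0729 in the same edgeR test). Dnmt3a at 93.22, 146.5 and 134.0 CPM and Tet3 at 63.14, 101.0 and 83.71 CPM went the other way, with adjusted p of 0.0653 and 0.0759 in the edgeR test, so neither passed. Both libraries numbered 1 also had the lowest summed astrocyte markers, as given above, and the highest S-phase levels of their group, described next. Summed fibroblast markers were likewise lowest in them (191.2 and 283.9 CPM, against 683.8 to 2059 CPM in the others). So were endothelial markers (11.08 and 7.545 CPM, against 35.48 to 60.32 CPM), and their neuron markers were the highest of each group (851.4 and 1199 CPM). Whether any of these has a part in the differences by replicate number was not tested.

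**Figure D4:**
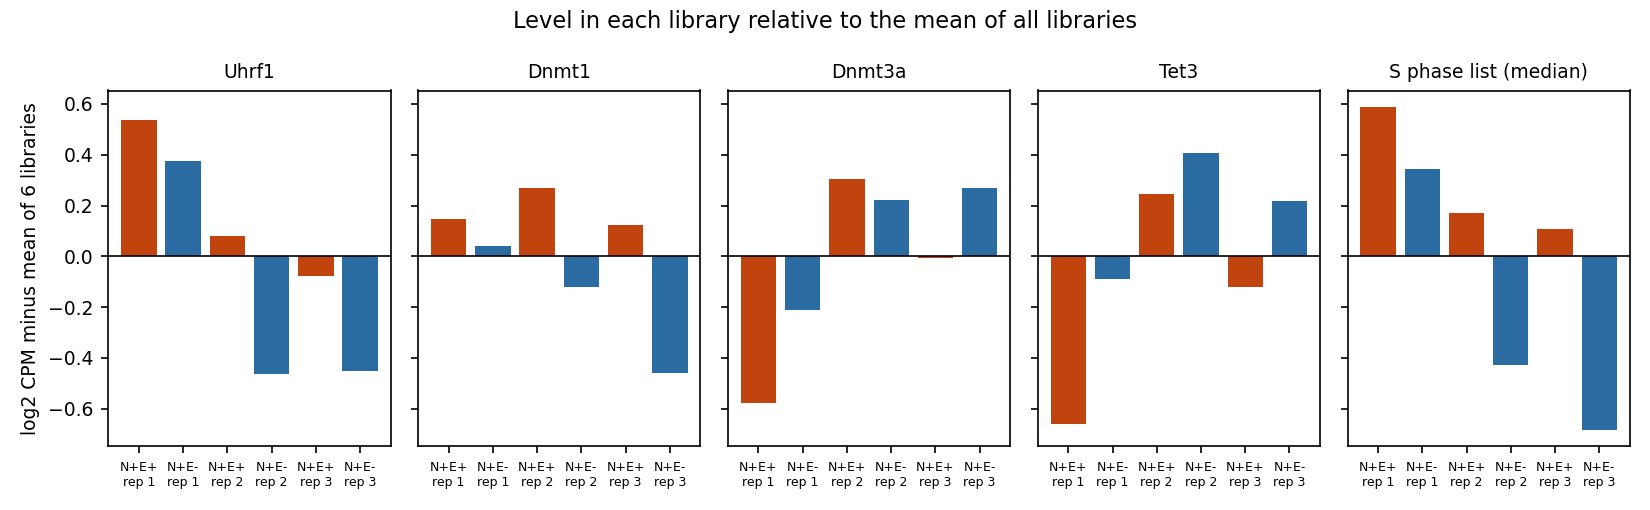
Bars give log2 CPM minus the mean of the 6 libraries for Uhrf1, Dnmt1, Dnmt3a and Tet3 and the median of the same over 22 S-phase genes, by library (N+E+ is Nanog+E-cadherin+, N+E- is Nanog+E-cadherin-, in order of replicate number). Uhrf1 and the S-phase list are highest in Nanog+E-cadherin+ replicate 1 (0.54 and 0.59) and below 0 in Nanog+E-cadherin- replicates 2 and 3, while Dnmt3a and Tet3 are lowest in Nanog+E-cadherin+ replicate 1.

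Of the 9 related lists, mitotic genes alone held calls in edgeR's fit with the block and all 6 libraries. The lists were chosen with earlier results of these data known. Of 22 S-phase genes, 22 were fitted higher in Nanog+E-cadherin+ cells. In all 3 pairs 19 were higher, as were 18.9% of all genes tested, and 0 were lower, as were 17.3%. The median log2 fold change of the 22 genes was 0.51 (group only) or 0.58 (block), and 0 passed in either fit. Their median deviation from the mean of all libraries was 0.59, 0.17 and 0.11 in Nanog+E-cadherin+ and 0.35, -0.43 and -0.68 in the Nanog+E-cadherin- libraries 1 to 3, while Uhrf1 deviated by 0.54, 0.08 and -0.08 and by 0.38, -0.46 and -0.45 and Dnmt1 by 0.15, 0.27 and 0.12 and by 0.04, -0.12 and -0.46 on the same log2 scale. Uhrf1 and Dnmt1 are themselves S-phase genes in cycling cells, and the part of the cell cycle in their values was not tested. The S-phase genes of smallest p with the block were Rrm2 of ribonucleotide reductase (1.52-fold, adjusted p = 0.173), the primase Prim1 (1.94-fold, 0.179) and the cyclin Ccne1 (1.70-fold, 0.179) in edgeR's quasi-likelihood test. Of 6 mitotic genes, 0 passed with group only and 5 rose with the block, namely Cdk1 (3.08-fold, adjusted p = 0.0143), Plk1 (2.52-fold, 0.0168), Top2a (2.21-fold, 0.0178), Aurka (2.32-fold, 0.0178) and Ccnb1 (2.23-fold, 0.0470), while Mki67 did not pass (1.46-fold, 0.484). Over all genes tested, 0.215% passed in this direction with the block. The 1.28-fold differences of Dnmt1 and Uhrf1 lay below that of each of the 6 mitotic genes.

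Among the factors that assist maintenance, 8 of 10 were fitted higher and 4 were higher in all pairs, with a median log2 fold change of 0.16 in both fits, and 0 of 10 passed. The sliding clamp Pcna, to which Dnmt1 binds, stood at 360.6 ± 157.8 against 223.5 ± 124.8 CPM (SD, n = 3 each), and with the block it was 1.68-fold higher (adjusted p = 0.0978 in edgeR's quasi-likelihood test). 2810417H13Rik, the Pcna-associated factor known as PAF15, was 1.82-fold higher (adjusted p = 0.0978) and the ligase Lig1 1.40-fold (adjusted p = 0.313) in the same edgeR fit. Of these, Lig1 had groups that did not overlap, as did 3.74% of all genes tested in this direction. The 1 gene of the list that was lower in all pairs had no overlap in the other direction, as did 3.25% of all genes. Uhrf2, the relative of Uhrf1, stood at 83.29 ± 11.81 against 81.58 ± 8.11 CPM (SD, n = 3 each), and it was named after its values were seen.

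Of readers of methylated or unmethylated CpG, 8 of 13 were fitted lower and 5 higher, and 0 of 13 passed. Their median log2 fold change was -0.26 (group only) or -0.24 (block). In all pairs 4 were lower, as were 17.3% of all genes tested, and 0 were higher, as were 18.9%. The zinc finger reader Zbtb4 was 0.70-fold (adjusted p = 0.423) and Mbd6 0.79-fold (0.487) in edgeR's quasi-likelihood fit with the block. Both were lower in Nanog+E-cadherin+ cells in all 3 pairs, as were the summed neuron markers given above, whose part in these values was not tested.

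The other groups gave no call in either fit. Of the 11 genes of excision repair, which completes what Tdg starts, 7 were fitted higher (median 0.12), and the nearest were the endonuclease Apex1 at 1.34-fold (adjusted p = 0.442 in edgeR's blocked quasi-likelihood fit), the glycosylase Neil3 at 1.52-fold (0.515) and the polymerase Polb at 1.39-fold (0.555). Of 9 Tet partners 7 were tested, 3 fitted higher and 4 lower (median -0.02). Sall4, a pluripotency factor that binds oxidised cytosine, stood at 31.50, 14.68 and 13.17 CPM in Nanog+E-cadherin+ and at 18.97, 2.60 and 4.09 CPM in Nanog+E-cadherin- libraries, higher in all pairs and 3.01-fold with the block (adjusted p = 0.179 in edgeR's test). The Tet-binding glycosyltransferase Ogt was at 0.71-fold (0.346) and Cxxc4 at 0.64-fold (0.525) in the same edgeR fit, and Prdm14 and Dppa3, which oppose methylation in germ cells and naive pluripotent cells, were below the filter at means of 0.481 CPM or less.

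Of 9 factors that guide Dnmt3 enzymes 8 were tested, 3 fitted higher and 5 lower (median -0.05). The imprint guardians Zfp57 (1.41-fold, adjusted p = 0.398) and Trim28 (1.27-fold, 0.443) were higher in all pairs and the histone demethylase Kdm1b (0.63-fold, 0.458) was lower in edgeR's blocked quasi-likelihood fit, and none passed. Of 7 enzymes that make the methyl donor S-adenosylmethionine or recycle its product, 4 were fitted higher (median 0.15). Each of the 4 was higher in all pairs, as were 18.9% of all genes tested, and 1 enzyme was lower in all pairs, as were 17.3%. Among the 4 were Ahcy (1.32-fold, adjusted p = 0.343), Mtr (1.41-fold, 0.387) and Mat2a (1.17-fold, 0.581) in the same edgeR fit.

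Germline genes that promoter methylation keeps silent in somatic cells were nearly all at or near 0 in both populations. Of 15, 12 were below the filter, Asz1 was listed at 0 in every library, and of the 3 tested none passed. Tex19.1, which is also expressed in pluripotent cells, stood at 35.19, 5.68 and 1.15 CPM in Nanog+E-cadherin+ and at 5.40, 0.173 and 0 CPM in the Nanog+E-cadherin- libraries 1 to 3. It was higher in Nanog+E-cadherin+ in each pair, with adjusted p = 0.0864 in edgeR's quasi-likelihood test with the block, and its counts in Nanog+E-cadherin- replicates 2 and 3 were 2 and 0. Ddx4 and Brdt, the other genes tested, averaged between 0.375 and 2.40 CPM in each group. Brdt was highest in Nanog+E-cadherin- replicate 2 (4.59 CPM) and Ddx4 in replicate 3 of that group (2.94 CPM), the libraries with background sequence. Several genes below the filter also had their highest counts, of up to 22, in Nanog+E-cadherin- replicate 2, while others had them in Nanog+E-cadherin+ libraries. The part of background sequence in these values was not tested.

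**Figure D5:**
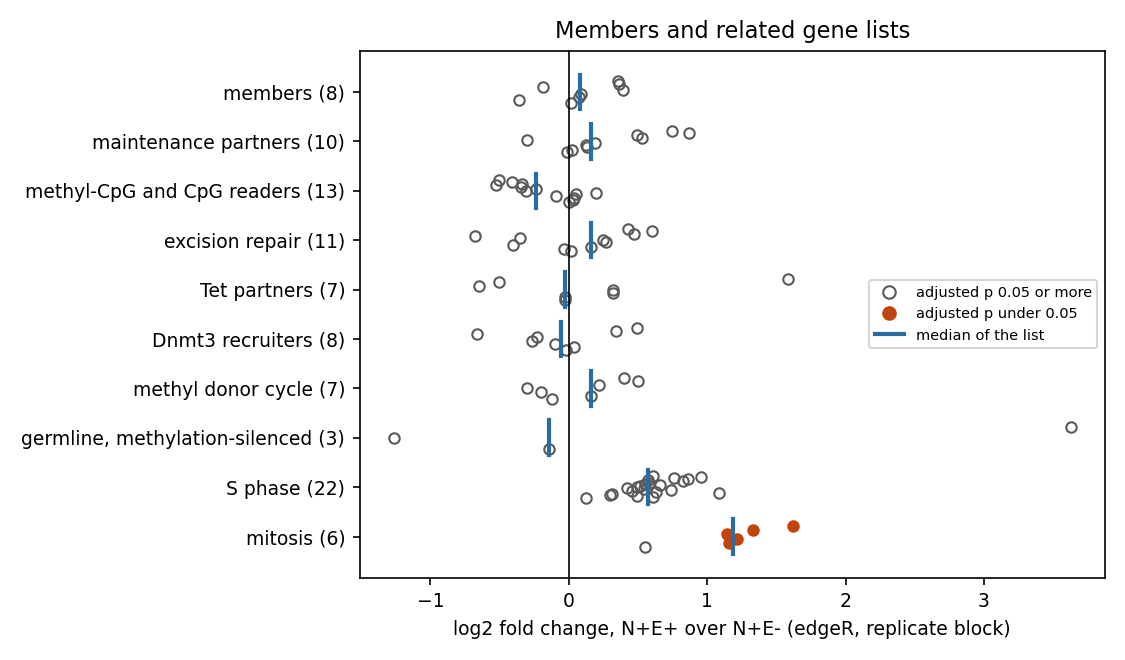
Each circle is a gene's log2 fold change of Nanog+E-cadherin+ (N+E+) over Nanog+E-cadherin- (N+E-) in edgeR's fit with the replicate block, for the 8 members and 9 related lists (number of genes tested in brackets), with filled circles for an adjusted p under 0.05 and a bar at each median. The 5 filled circles are mitotic genes, the S-phase genes all lie above 0 and the 8 members lie between -0.36 and 0.39.

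The genes whose profile over the 6 libraries was most like that of a member were found by the root mean square difference of log2 CPM, each centred on its own mean, among 9703 genes. For Dnmt3b, whose SD over the libraries was 0.25, they were Glud1, Rnf26 and Psrc1, at differences of 0.0414, 0.0436 and 0.0478. For Tet1 (SD 0.17) they were Canx, Xrn2 and Impa1, at 0.0275, 0.0423 and 0.0516, and for Uhrf1 (SD 0.41) Mtfr1, Uba2 and Blmh, at 0.0524, 0.0597 and 0.0657. Dnmt3l was too low to be compared. This likeness over 6 libraries is a description only.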

How the data were processed

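RNA-seq was read from 6 libraries, 3 of Nanog+E-cadherin+ and 3 of Nanog+E-cadherin- cells, with groups and replicate numbers from the titles. Alignment and counting tools were Bowtie and RSEM 1.2.4, and the build mm9, per the submitters' processing notes. Of the settings and the strand used, nothing is given in the sources used here. The expected counts deposited by the authors were rounded to whole numbers for the tests. The TPM values deposited by the authors served for levels between genes and for ratios, and the FPKM values deposited by the authors for an alternative of the ratios. Per the file headers, the deposited gene length is a mean over transcripts.

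edgeR 4.0.16 (R 4.3.3, limma 3.58.1) was used with TMM, filterByExpr (minimum count 10, minimum total 15), quasi-likelihood tests and Benjamini-Hochberg adjustment over all genes at 0.05, with group as the only term. The SE is the log2 fold change divided by the root of the F value, and 95% intervals use the fit's degrees of freedom. Alternatives were the replicate block, DESeq2 1.42.0, limma-voom, limma on log2(TPM + 1) and log2(TPM + 0.1), other scaling, no filter, and leaving out libraries. Those that leave out the libraries with background sequence, that test the replicate number and that use count ratios were added after the data were seen. Pair ratios use CPM + 0.5. Only edgeR's fits with and without the block were tested on simulated data, with planted changes larger than any fitted for the members. The other steps were not tested in this way.

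Replicate numbers were taken to pair the libraries because same-numbered ones correlated in their deviations from group means (0.793, 0.447 and 0.541, limit 0.1). Libraries of different numbers ran from -0.65 to 0.164, and those at 0.164 and 0.12 also exceeded the limit. Deviations from a group mean cancel out within the group, so these correlations are not independent of each other. The pairing comes from the values, since the labels name no shared culture. Members and lists were chosen with earlier results of these data known. Named genes are the members, each list's called genes and its 3 of smallest p with the block, and the 3 nearest profiles with a mean of at least 5 TPM for Dnmt3b, Tet1 and Uhrf1; 1 gene that the rule names is not reported here. Similar genes were found with BLAST+ 2.17.0 and overlapping ones from exon positions, both in GENCODE M21. Ratios were tested by exact permutation, for which 3 against 3 cannot go below 0.1. For Dnmt1, with 2150 to 11344 counts, counting error is small beside the spread between libraries.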

Additional observations from a re-analysis of the deposited data

How the results depend on the processing

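Over 20 alternative fits, 141 of 160 values of the 8 tested members kept their direction without passing, 19 reversed and 0 passed; the cause of the reversals was not tested. Dnmt1, Dnmt3b and Tet3 kept their direction in all 20, which are refits of the same libraries and not independent of each other. With the replicate block no member's call changed (Dnmt1 0.36, adjusted p = 0.432 in edgeR), while the number of genes called over all genes was 41 with the block, against 0. It was 1 with no filter, 21 with DESeq2, 304 with DESeq2 and the block, 264 with limma-voom and the block, and 182, 140 and 449 with the block without both libraries numbered 1, 2 and 3, fits of 2 pairs that leave few degrees of freedom. Leaving out 1 library with group only gave 0 in each case.

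Without both libraries with background sequence, where Nanog+E-cadherin- replicate 1 stands alone and its replicate number cannot be told apart from the group, Uhrf1 was -0.17, Dnmt3a 0.16 and Tdg -0.25 on the log2 scale. With log2(TPM + 1) and log2(TPM + 0.1), Tet1 was -0.01784 and -0.01594, Tet2 -0.02573 and -0.0324, and Tdg -0.08213 and -0.08305, and with library totals Tdg was -0.01. With the replicate block without both libraries numbered 1, Tet2 was -0.21 and Tdg -0.007082, and without those numbered 2 Tet1 was -0.02357. Leaving out 1 library at a time gave 0.22 to 0.47 for Dnmt1, 0.13 to 0.67 for Uhrf1, 0.28 to 0.47 for Dnmt3b, -0.55 to -0.11 for Tet3, -0.36 to 0.05422 for Dnmt3a, -0.001233 to 0.22 for Tet1, -0.26 to 0.46 for Tet2 and -0.18 to 0.20 for Tdg, with Dnmt3a and Tet2 reversing without Nanog+E-cadherin+ replicate 1, Tet1 without Nanog+E-cadherin- replicate 2, and Tdg without Nanog+E-cadherin+ replicate 1 or Nanog+E-cadherin- replicate 2 or 3. In this way the log2 differences ran from -0.20 to 0.15 for the Uhrf1 to Dnmt1 ratio (0.002189 with counts), from 0.18 to 0.79 for Dnmt3b to Dnmt3a, from 0.08 to 0.30 for the Tet1 share and from -0.48 to -0.19 for new-site to maintenance enzymes. The last was -0.48 and -0.19 when replicates 1 and 3 of Nanog+E-cadherin- were left out.

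Genes called in lists, 0 with group only, changed as follows. For maintenance partners 2 passed with DESeq2 and the block, 2 with limma-voom and the block, and 2 and 3 with the edgeR block without both libraries numbered 1 and 3. For Tet partners 1 passed with DESeq2 and the block and 1 with the edgeR block without those numbered 3. For germline genes 1 passed in each of 4 fits, namely DESeq2 or limma-voom with the block and the edgeR block without those numbered 2 or 3. For S-phase genes the counts were 7 and 3 with the block in DESeq2 and limma-voom, and 1, 1 and 7 with the edgeR block without those numbered 1, 2 and 3. For mitotic genes 1 passed with DESeq2 alone, 5 with the block in edgeR, DESeq2 and limma-voom, and 5, 5 and 6 without those numbered 1, 2 and 3. The other 158 of 180 list counts did not move. Dnmt3l was below the filter and has no fitted value. Ratios of FPKM equal those of TPM up to rounding.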
